A study of Mus musculus with 8 samples.

Results

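The genes described are 10 p53-linked apoptosis and death receptor genes: Bax, Bbc3, Pmaip1, Fas, Perp, Tnfrsf10b, Tnfrsf23, Eda2r, Aen and Ei24. They were chosen by symbol from the 31053 genes of the count tables, and all 10 were found once and had enough counts to be tested. Levels were taken from single-cell RNA-seq of SN4741, a mouse line made from embryonic substantia nigra and labelled as neural precursor cells of wild-type genotype. The line carries the temperature-sensitive SV40 T antigen SV40Tag-tsA58 under the tyrosine hydroxylase promoter, which all 8 libraries share. The 4 libraries at 37°C were from undifferentiated cells at the permissive temperature in 10% serum. The 4 libraries at 39°C were from cells held for 48 hours at the non-permissive temperature in 0.5% serum, so temperature and serum cannot be told apart. The line is reported to be clonal, with an unstable polyploid karyotype, and gene copies therefore vary between cells.

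p53 is a transcription factor that is stabilised by DNA damage and other stress, and among its known targets are genes of both apoptotic routes. In the mitochondrial route, BH3-only proteins such as Puma (Bbc3) and Noxa (Pmaip1) bind the protective BCL2 proteins, and Bax opens pores in the outer mitochondrial membrane. In the receptor route, Fas and the TRAIL receptor Tnfrsf10b carry a death domain that recruits caspase 8, whereas decoy receptors bind ligand without a working death domain. SV40 T antigen binds p53, and the tsA58 form loses function at the non-permissive temperature.

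Upstream sequences were looked up because the genes share p53 as a known regulator. RefSeq promoters of GRCm38.p6 were searched in 7 of the 10 genes, with 10 start sites in all. Each was searched on both strands from 250 bases before to 50 bases after the start. No promoter of Pmaip1, Perp or Tnfrsf10b was searched, so nothing is said of motifs in these genes. A p53 half-site, the 10-base unit of which p53 sites hold a pair, was matched in promoters of Bax, Aen and Ei24 and in 8.36% of all 32851 promoters. TATAAA was matched in Eda2r and Tnfrsf23 and in 13.6% of all promoters. The E-box CACGTG was matched in Bax, Fas, Eda2r, and 1 start site each of Aen and Bbc3, against 7.15% of all promoters. Bases upstream of the start are printed 5′ to 3′ for 5 genes, in the order of the text. First is the gene that did not change with temperature, then the pair with a half-site that rose. Last is a pair of receptors with TATAAA and no half-site. Capitals mark the half-site in the first 3 (and CACGTG in Bax and Aen) and TATAAA, read on either strand, in the last 2.
Bax, chr7:45466899-45467148, minus strand: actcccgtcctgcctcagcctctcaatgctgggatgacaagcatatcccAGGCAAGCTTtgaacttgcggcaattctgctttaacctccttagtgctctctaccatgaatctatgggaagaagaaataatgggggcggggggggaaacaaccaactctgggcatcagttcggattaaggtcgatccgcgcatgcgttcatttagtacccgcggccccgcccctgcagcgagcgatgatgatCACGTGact
Aen, chr7:78895808-78896057, plus strand: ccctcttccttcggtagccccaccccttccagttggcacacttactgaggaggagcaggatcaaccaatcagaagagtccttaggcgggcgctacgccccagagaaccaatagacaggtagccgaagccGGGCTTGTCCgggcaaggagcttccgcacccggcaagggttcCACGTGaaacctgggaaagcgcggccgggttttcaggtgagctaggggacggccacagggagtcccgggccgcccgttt
Ei24, chr9:36797335-36797584, minus strand: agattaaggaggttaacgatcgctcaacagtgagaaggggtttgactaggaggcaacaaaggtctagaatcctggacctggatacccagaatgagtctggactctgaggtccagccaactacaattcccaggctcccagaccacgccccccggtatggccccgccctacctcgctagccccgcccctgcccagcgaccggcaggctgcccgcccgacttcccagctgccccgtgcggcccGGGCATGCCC
Tnfrsf23, chr7:143685876-143686125, minus strand: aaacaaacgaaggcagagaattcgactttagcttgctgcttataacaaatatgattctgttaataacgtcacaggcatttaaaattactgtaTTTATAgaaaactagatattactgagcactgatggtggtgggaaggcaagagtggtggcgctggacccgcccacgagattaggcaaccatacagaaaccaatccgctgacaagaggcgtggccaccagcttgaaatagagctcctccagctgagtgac
Eda2r, chrX:97377210-97377459, minus strand: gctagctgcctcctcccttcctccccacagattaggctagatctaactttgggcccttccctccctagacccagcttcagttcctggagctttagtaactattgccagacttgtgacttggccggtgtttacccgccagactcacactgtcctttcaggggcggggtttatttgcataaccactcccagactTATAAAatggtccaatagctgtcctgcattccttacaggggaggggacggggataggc
The half-sites read AGGCAAGCTT in Bax, GGGCTTGTCC in Aen and GGGCATGCCC in Ei24. Counted from the start, they begin at positions -201, -121 and -10. No half-site lay in the windows of Bbc3, Fas, Eda2r or Tnfrsf23. The Tnfrsf23 and Eda2r windows held 9 and 5 CpG dinucleotides against a median of 7 over all promoters, and the 3 Bbc3 windows held 30 to 39. A match is a description of these letters only.

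The deposited tables held 19125 cells, and 18351 were kept after the filters of the study, 8550 at 37°C and 9801 at 39°C. Libraries kept 985 to 3494 cells and 17166686 to 29633818 UMIs (unique molecular identifiers, each standing for a captured transcript). The median mitochondrial share of UMIs was 7.55% to 7.89% at 37°C and 8.04% to 8.85% at 39°C, without overlap, and its part in the results was not tested. Of the 8 neural precursor markers, 5 had enough counts to be tested, and Pax6, Hes5 and Fabp7 did not. Of those tested, Sox2, Hes1 and Msi1 were higher at 39°C and Nes was lower, at a log2 fold change of -2.11. Msi1 was near the floor, at means of 0.0185 for each 1000000 UMIs at 37°C and 0.0988 at 39°C. So was Pecam1, an immune and blood marker counted below as higher, at 0.240 and 0.631. Of the tested markers of other types, 0 of 5 neuronal genes were higher and 3 lower, 0 of 5 dopaminergic were higher and 1 lower, 1 of 3 glial were higher, 2 of 6 immune and blood were higher, and 6 of 7 mesenchymal were lower (median log2 fold change -1.90). The dopaminergic markers Th, Slc6a3 and Pitx3 had too few counts to be tested. Of the 5 that were tested, Slc18a2, Lmx1b and Aldh1a1 were near the floor, at means of at most 1.47 for each 1000000 UMIs. The part of the marker changes in the results was not tested. Cells given to G1 by their expression of S and G2M genes made up 20.6% to 28.7% of a library at 37°C and 82.5% to 85.4% at 39°C. The marker counts above are over all kept cells. Within G1 cells 2 of 5 neural precursor genes were higher and 1 lower, without a call for Msi1. There 0 of 3 neuronal genes were higher and 2 lower, and 1 of 4 dopaminergic genes, Nr4a2, was higher and 0 lower. In the same cells 1 of 3 glial and 3 of 5 immune and blood genes were higher, and 6 of 7 mesenchymal lower. None of the 10 genes is in the lists that set the phase.

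UMI counts were summed per library and given as CPM, the UMIs of a gene for each 1000000 UMIs of the library after TMM scaling. In this assay a transcript is counted from its 3′ end, so a count does not scale with transcript length. At 39°C 9 of the 10 genes were higher (edgeR quasi-likelihood test, adjusted p of 1.22e-05 or less) and none was lower, against 31.5% of the 15810 genes tested that were higher and 30.5% that were lower. For those 9 every library at 39°C lay above every library at 37°C, as was so for 28.7% of genes. The exception was Bax. The median log2 fold change of the 10 genes was 0.59 and that of all genes was 0.02. A single gene, Tnfrsf23, passed the limits that the study used for bulk RNA-seq, an adjusted p below 0.01 and a log2 fold change above 1.5, which 2.21% of genes passed upwards.

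**Figure D1:**
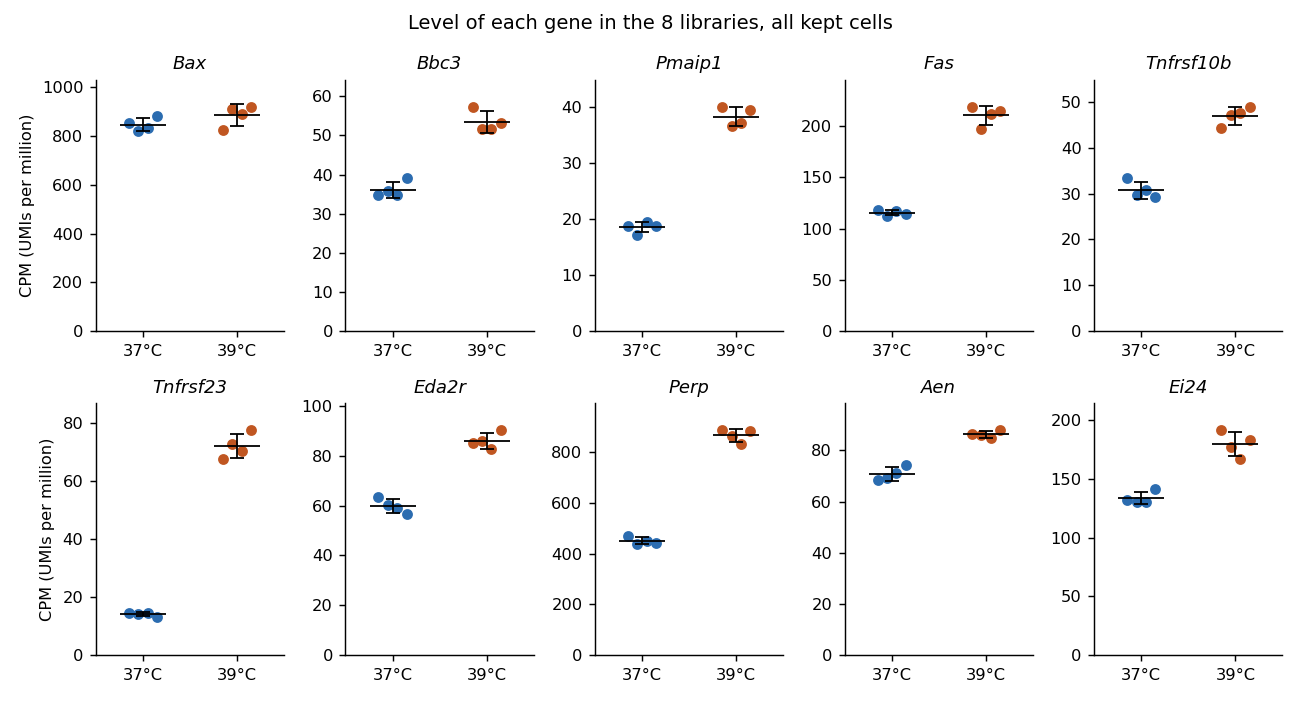
Level of each gene in CPM (vertical axes, linear and starting at 0, scaled per gene) in the 4 libraries at 37°C (blue) and the 4 at 39°C (orange), over all kept cells, with a black bar for the mean and its SD. The points of the 2 temperatures overlap for Bax (819.8 to 881.6 CPM against 823.5 to 920.1 CPM) and are apart for the other 9 genes.

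Among the mitochondrial route genes, the pair of BH3-only genes rose and the pore-former did not. Bbc3, which encodes Puma (ENSMUSG00000002083, chr7:16308393-16318205, GRCm38), was at 34.8, 35.9, 34.8 and 39.1 CPM in 37°C replicates 1 to 4. In 39°C replicates 1 to 4 it was at 57.4, 51.7, 51.6 and 53.1 CPM. All 4 libraries at 39°C were above the highest at 37°C, and replicate 1 was the highest of them. The mean rose from 36.2 ± 2.03 to 53.5 ± 2.70 CPM (SD, n = 4 each), a log2 fold change of 0.56 ± 0.052 (SE, adjusted p by edgeR = 1.4e-08).

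Pmaip1, which encodes Noxa, an inhibitor of the protective protein Mcl1 (ENSMUSG00000024521, chr18:66458533-66465565), was at 18.7, 17.2, 19.5 and 18.8 CPM at 37°C. At 39°C it was at 40.1, 36.5, 37.1 and 39.4 CPM. The lowest library at 39°C was far above the highest at 37°C. The log2 fold change came to 1.04 ± 0.053 (SE, adjusted p by edgeR = 2.54e-12), larger than that of Bbc3, although the difference between the genes was not tested.

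Bax, the pore-forming effector (ENSMUSG00000003873, chr7:45461697-45466898), had the highest counts of the 10 genes at 37°C. It was at 853, 820, 833 and 882 CPM at 37°C and at 824, 912, 888 and 920 CPM at 39°C. The groups overlapped, with 39°C replicate 1 below 3 of the 4 libraries at 37°C. The log2 fold change came to 0.06 ± 0.053 (SE, adjusted p by edgeR = 0.308). The annotated gene Gm45808 overlaps Bax on the same strand and shares 8.51% of its 50-base stretches, so counts from that stretch are uncertain.

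The receptors among the genes described all rose, with the decoy receptor ahead of the others. Fas, the receptor for Fas ligand (ENSMUSG00000024778, chr19:34290666-34327772), was at 118, 113, 117 and 114 CPM at 37°C. At 39°C it was at 219, 197, 211 and 215 CPM. The libraries of each temperature lay close together and far from those of the other. Its log2 fold change was 0.87 ± 0.046 (SE, adjusted p by edgeR = 5.16e-12).

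Tnfrsf10b, the mouse TRAIL receptor with a death domain (ENSMUSG00000022074, chr14:69767472-69784411), was at 33.4, 29.6, 30.7 and 29.3 CPM at 37°C. At 39°C it was at 44.2, 47.1, 47.5 and 48.9 CPM. Every library at 39°C was higher, and 39°C replicate 1 was the nearest to those at 37°C. The log2 fold change came to 0.61 ± 0.052 (SE, adjusted p by edgeR = 4.24e-09).

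Tnfrsf23, a decoy receptor for TRAIL without a death domain (ENSMUSG00000037613, chr7:143665809-143685872), had the lowest counts of the 10 genes at 37°C, 14.4, 14.3, 14.5 and 13.2 CPM. At 39°C it was at 67.6, 72.7, 70.2 and 77.4 CPM. It passed from below Pmaip1 to above Bbc3 and Tnfrsf10b in every library. Its neighbour Tnfrsf22, another decoy receptor, went from 4.58 ± 0.419 to 20.4 ± 1.01 CPM (SD, n = 4 each), a log2 fold change of 2.15 ± 0.074 (SE, adjusted p by edgeR = 8.64e-15). The sequences are alike: over whole transcripts, 18.01% of the 50-base stretches of Tnfrsf23 occur in Tnfrsf22, so counts from those stretches are uncertain. The third gene of the cluster, Tnfrsf26, averaged 0.123 ± 0.0564 CPM in libraries at 37°C, 0.189 ± 0.122 CPM in those at 39°C (SD, n = 4 each) and was not called (edgeR adjusted p = 0.345).

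Eda2r, the receptor for ectodysplasin A2 (ENSMUSG00000034457, chrX:97333840-97377216), was at 63.5, 60.0, 59.1 and 56.4 CPM at 37°C. At 39°C it was at 85.1, 85.7, 82.8 and 90.2 CPM. No library of one temperature reached the other group. The log2 fold change came to 0.52 ± 0.048 (SE, adjusted p by edgeR = 1.16e-08).

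Perp, Aen and Ei24 act elsewhere in the p53 response. Perp, a tetraspan membrane protein of desmosomes that can promote apoptosis (ENSMUSG00000019851, chr10:18845020-18857073), was at 470, 437, 451 and 444 CPM at 37°C. At 39°C it was at 887, 864, 832 and 885 CPM. Its mean of 867 ± 25.3 CPM at 39°C lay near that of Bax, 886 ± 43.7 CPM (SD, n = 4 each), whereas at 37°C the mean of Perp, 451 ± 14.4 CPM, was far below the 847 ± 26.8 CPM of Bax. The log2 fold change of Perp was 0.94 ± 0.050 (SE, edgeR adjusted p = 4.38e-12).

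Aen, an exonuclease that takes part in apoptotic DNA breakdown (ENSMUSG00000030609, chr7:78895854-78911209), was at 68.4, 69.3, 71.1 and 74.5 CPM at 37°C. At 39°C it was at 86.5, 86.0, 84.7 and 87.9 CPM. This was the smallest change among the 9 genes that rose, with a log2 fold change of 0.29 ± 0.044 (SE, adjusted p by edgeR = 1.22e-05). Ei24, a membrane protein of the endoplasmic reticulum (ENSMUSG00000062762, chr9:36779159-36797393), was at 132, 131, 130 and 141 CPM at 37°C and at 191, 177, 167 and 184 CPM at 39°C. The groups did not overlap, and the log2 fold change came to 0.43 ± 0.050 (SE, adjusted p by edgeR = 4.15e-07).

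The comparison was also made within each phase, since G1 cells were few at 37°C and many at 39°C. In G1 cells the same count held, 9 of 10 genes higher, against 24.8% of 14712 genes higher and 22.4% lower. All 9 were without overlap between temperatures, as were 23.7% of genes. Tnfrsf23 again was the single gene past the size limit, which 1.04% of genes passed. The log2 fold change in G1 cells was 1.81 ± 0.073 for Tnfrsf23, 1.25 ± 0.085 for Pmaip1, 0.74 ± 0.055 for Perp and 0.65 ± 0.053 for Fas (SE). For Bax the G1 means were 896 ± 22.2 CPM and 910 ± 47.7 CPM (SD over 4 libraries each), or 0.02 ± 0.056 on the log2 scale (SE, edgeR adjusted p = 0.79), and its sign turned with the scaling method.

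In S cells 8 of 10 genes were higher at 39°C, against 20.1% of 13740 genes. The 2 that did not pass were Bax and Aen, at log2 fold changes of -0.04 ± 0.062 and 0.14 ± 0.071 (SE). In G2M cells, of which libraries at 39°C held few, 7 of 10 were higher, against 13.2% of 13802 genes. Bax, Aen and Ei24 did not pass there, and Ei24 had a log2 fold change of 0.15 ± 0.086 (SE, adjusted p by edgeR = 0.189). The count in G2M cells fell to 4 without 39°C replicate 3. Tnfrsf23 was between 1.81 and 2.13 on the log2 scale in the 3 phases, below its value of 2.36 in all cells.

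**Figure D2:**
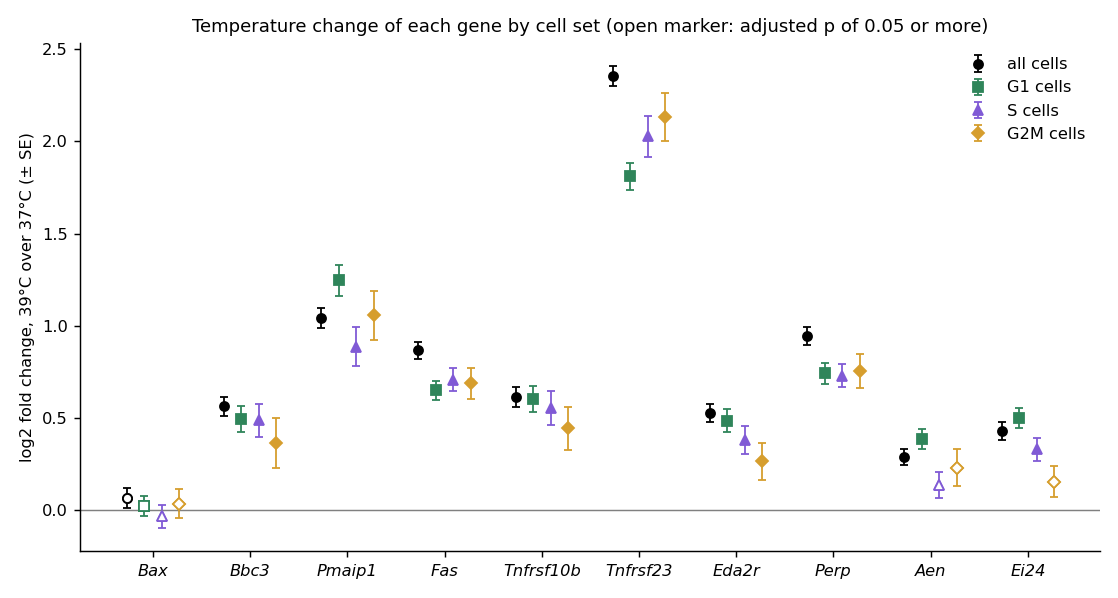
Log2 fold change of each gene at 39°C over 37°C with its standard error (vertical axis), in all kept cells and in cells given to G1, S or G2M, from sums of 4 libraries at each temperature. Bax stayed near 0 with open markers (adjusted p of 0.05 or more) in the 4 cell sets, and Tnfrsf23 was highest in each. Aen had open markers in S and G2M cells, and Ei24 in G2M cells.

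Within libraries, cells given to S or G2M, called cycling here, were set against G1 cells of the same library. At 37°C 2 genes were higher in cycling cells and 4 lower, against 25% and 18.4% of 14745 genes. Tnfrsf23 was lower in cycling cells, at 12.3 ± 1.01 CPM against 22.1 ± 2.21 CPM in G1 cells (SD, n = 4 each), a log2 difference of -0.84 ± 0.083 (SE, edgeR adjusted p = 1.08e-22). Fas and Perp were lower as well, at log2 differences of -0.32 ± 0.035 and -0.32 ± 0.023, and so was Bax, at -0.06 ± 0.021 (SE). Pmaip1 and Aen went the other way, by 0.26 ± 0.083 and 0.11 ± 0.045 (log2, SE). Pmaip1 lost its call without 37°C replicate 2 or 4, at log2 differences of 0.20 and 0.22. Bax lost its own without 37°C replicate 1 or 3, at -0.05 in both. Aen lost its call without 37°C replicate 2, 3 or 4 or 39°C replicate 1, at 0.09 to 0.11, and with RLE size factors, at 0.07. With phases scored within each library, Tnfrsf23, Fas and Perp kept their calls at smaller differences (-0.66, -0.20 and -0.26).

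At 39°C no gene was higher in cycling cells and 9 were lower, against 19.2% and 21.1% of genes. Tnfrsf23 was at 48.8 ± 5.12 CPM in cycling cells and 76.7 ± 4.49 CPM in G1 cells (SD, n = 4 each), a log2 difference of -0.64 ± 0.059. Perp, Eda2r, Ei24 and Fas followed at -0.39, -0.33, -0.28 and -0.26. The 10th gene, Pmaip1, was at 35.8 ± 2.67 CPM in cycling and 39.0 ± 2.00 CPM in G1 cells (SD, n = 4 each; log2 difference -0.12, edgeR adjusted p = 0.168). The call for Bbc3 was lost without 39°C replicate 2 or 4, at log2 differences of -0.15 and -0.14. That for Tnfrsf10b was lost without 39°C replicate 4, at -0.12. With phases scored within each library, Bbc3, Tnfrsf10b and Aen lost their calls (-0.01, -0.09 and 0.02), and Pmaip1 passed in the upward direction (0.13). Tnfrsf23, Perp, Eda2r, Ei24 and Fas kept their calls there, at much smaller differences (-0.30, -0.19, -0.095, -0.12 and -0.076).

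**Figure D3:**
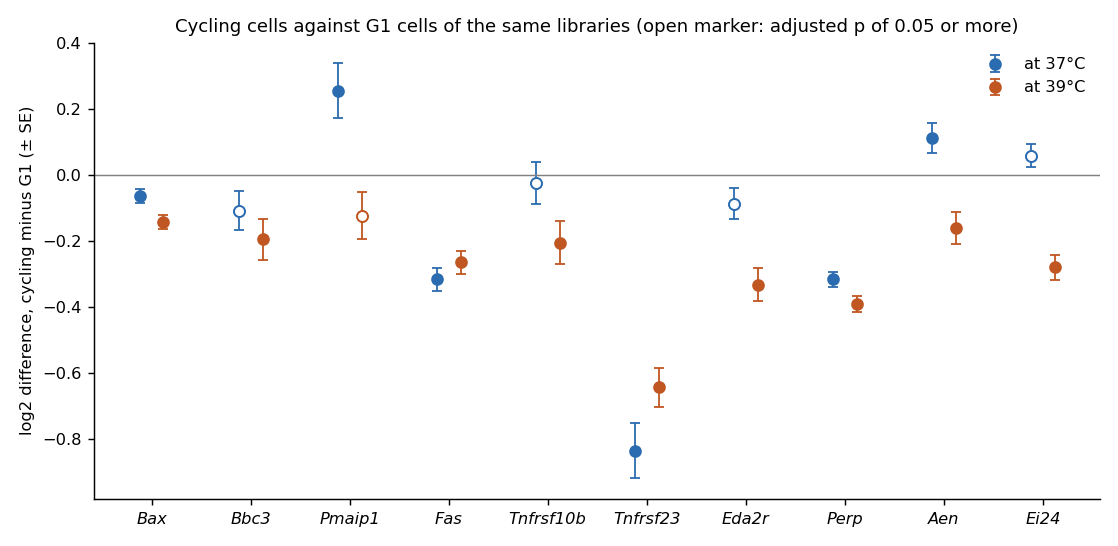
Log2 difference between cycling and G1 cells of the same libraries with its standard error (vertical axis) for each gene, at 37°C (blue) and 39°C (orange), 4 libraries each. Tnfrsf23 is the lowest point at each temperature, and Aen, Ei24 and Pmaip1 lie above 0 at 37°C and below 0 at 39°C.

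The temperature change itself was smaller in cycling than in G1 cells for 4 genes and larger for none, against 11.1% and 5.13% of genes (edgeR test of the interaction). These were Ei24 (log2 difference of the changes -0.34 ± 0.051, adjusted p = 1.59e-09), Pmaip1 (-0.38 ± 0.11, adjusted p = 0.00559), Aen (-0.27 ± 0.067, adjusted p = 7.01e-04) and Eda2r (-0.25 ± 0.070, adjusted p = 0.00474). In Ei24, G1 cells went from 132 ± 4.22 to 186 ± 11.3 CPM and cycling cells from 138 ± 5.67 to 153 ± 7.85 CPM (SD, n = 4 each). Tnfrsf23 had a difference of 0.19 ± 0.10 that did not pass (adjusted p = 0.208). This result turned on how phases were given: with phases scored within each library, Ei24 kept its call, Pmaip1, Aen and Eda2r lost theirs (-0.20, -0.07 and -0.10), and Tnfrsf23, Fas and Perp passed in the upward direction (0.36, 0.12 and 0.08). With the updated phase gene lists, Bax and Perp also passed in the downward direction (-0.12 and -0.09).

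To compare single cells at equal depth, each cell was thinned to 5000 UMIs, which left out 668 of 8550 cells at 37°C and 1668 of 9801 at 39°C. Bax was counted in 97.6% ± 0.338 of cells at 37°C and 97.8% ± 0.460 at 39°C, and the libraries overlapped (SD, n = 4 each, as for all shares here). Tnfrsf23 went from 6.28% ± 0.767 to 27.8% ± 1.18 of cells and Pmaip1 from 8.45% ± 0.580 to 16.9% ± 1.17. Both were counted in a minority of cells at each temperature. Perp went from 84.5% ± 1.66 to 96.4% ± 0.544 and Fas from 39.9% ± 1.14 to 62.8% ± 1.77. For every gene but Bax, the lowest thinned share at 39°C exceeded the highest at 37°C. For how many of all genes this was so was not computed. In unthinned cells the libraries of the temperatures overlapped for every gene but Tnfrsf23. Without thinning, the shares at 37°C and 39°C were 15.6% and 44.2% for Tnfrsf23, 19.4% and 29.8% for Pmaip1, 95.8% and 97.4% for Perp and 65.3% and 78.3% for Fas. The line holds no cell type known to lack these genes, so the share that free RNA can give was not measured.

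**Figure D4:**
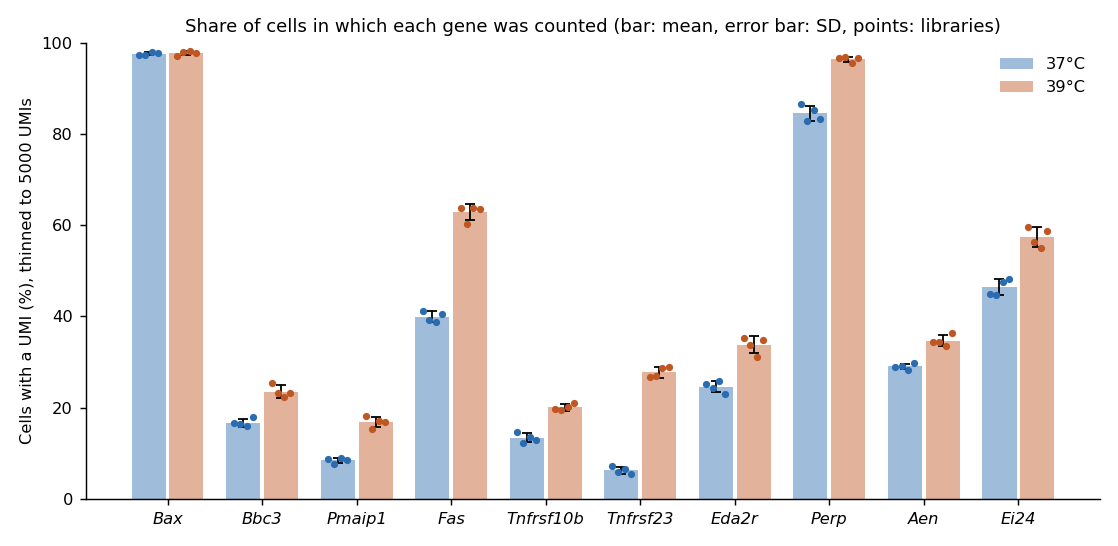
Share of cells with at least 1 UMI of each gene after thinning each cell to 5000 UMIs (vertical axis, percent), at 37°C (blue) and 39°C (orange), with bars for the mean of 4 libraries, error bars for the SD and points for the libraries. Tnfrsf23 moves from the lowest share at 37°C (6.28%) to above those of Bbc3, Pmaip1 and Tnfrsf10b at 39°C (27.8%), and Bax stays near 98%.

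A thinned cell held UMIs of 3.67 ± 0.0493 of the 10 genes on average at 37°C and 4.71 ± 0.0722 at 39°C (SD, n = 4 each). At least 5 of the genes were counted in 26.4% ± 1.49 and 55.4% ± 2.60 of cells, and at most 2 in 19.5% ± 1.27 and 5.12% ± 0.562. The spread between cells, as variance over mean of the thinned counts, was widest for Perp, at 1.503 ± 0.0377 at 37°C and 1.75 ± 0.113 at 39°C. Bax, at a like level at 39°C, was at 1.31 ± 0.0372 and 1.31 ± 0.0976. The other 8 genes were between 1.03 and 1.28. Over the 45 pairs of genes, Pearson's r across the cells of a library ran from -0.075 to 0.193. The highest values were those of Bax with Perp at 39°C, 0.148 to 0.193 in the 4 libraries, the pair that was counted in nearly all cells. Over all cells, 24 pairs at 37°C and 20 at 39°C were counted together more often than the product of their shares gives in all 4 libraries. For 0 and 2 pairs the joint count was below that product in all 4. Within G1 cells the first counts were 8 and 14 pairs and the second 1 and 2. The share over all pairs of genes was not computed. The furthest from that product over all cells was Pmaip1 with Fas at 37°C. They were counted together in 345 cells where 268 would be given, a ratio of 1.25 to 1.33 in the 4 libraries. Within G1 cells the ratio of this pair was 1.11 to 1.35, with 75 cells where 64.0 would be given. These cells share their library, and all pairs share the same thinned depth.

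Cells over the 15% mitochondrial limit, 170 at 37°C and 164 at 39°C, had been left out, and they were set against the kept cells of the same libraries with mitochondrial genes removed. This fit was chosen after the levels in these cells had been seen. Bax was lower in them, at 586 CPM (95% exact Poisson interval 517 to 662) against 908 CPM (902 to 914) at 37°C, and at 724 CPM (655 to 798) against 981 CPM (974.8 to 987.8) at 39°C. Over both temperatures the log2 difference was -0.81 ± 0.17 (SE, edgeR adjusted p = 3.12e-05). Tnfrsf23 and Eda2r were higher, by 1.09 ± 0.25 (adjusted p = 1.96e-04) and 0.69 ± 0.18 (adjusted p = 0.00145). The other 7 genes did not pass. Of 9556 genes tested, 9.81% were higher and 14.6% lower. These 3 calls held without any single library, but 39°C replicate 4, which gave the most UMIs, differed from most other libraries. There Bax was at 956 CPM against 1021 CPM in its kept cells, Tnfrsf23 at 77.2 against 85.8 CPM and Eda2r at 94.4 against 100.1 CPM. In the other 3 libraries at 39°C, Bax was at 506 to 685 CPM in the cells over the limit. Outside 39°C replicate 4, Tnfrsf23 was higher in these cells except in 37°C replicate 4 (12.6 CPM from 1 UMI, against 14.0 CPM). Eda2r was higher in each, by little in 39°C replicate 3 (95.4 CPM from 6 UMIs, against 90.7 CPM). Of the 99 Tnfrsf23 UMIs in these cells at 39°C, 57 came from replicate 1. Intervals cover counting error only.

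Of 15 other tested BCL2 family genes, 5 were higher and 6 lower at 39°C over all cells, near the background of 31.5% of all genes higher and 30.5% lower. The BH3-only gene Bcl2l11 (Bim) rose from 29.2 ± 1.89 to 53.6 ± 1.33 CPM, and the protective genes Bcl2l1 and Mcl1 rose from 94.6 ± 4.46 to 139 ± 5.38 CPM and from 182 ± 6.60 to 239 ± 8.16 CPM (SD, n = 4 each, as for all means here). The effectors Bok and Bak1 fell, from 49.1 ± 4.29 to 13.5 ± 0.563 CPM and from 49.5 ± 3.68 to 29.4 ± 1.35 CPM. Bcl2l12 also fell, by 0.59 ± 0.073 (log2, SE).

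Of 16 other tested genes of the death receptor route, 5 were higher and 4 lower, where the shares over all genes were 31.5% and 30.5%. Casp8, the caspase recruited by death domains, fell from 51.8 ± 2.30 to 33.1 ± 1.30 CPM, and Cflar, its catalytically inactive relative, rose from 39.5 ± 1.45 to 60.2 ± 4.79 CPM. Tnfrsf1a, the TNF receptor with a death domain, rose by 0.46 ± 0.048, and its adaptor Tradd fell by 0.22 ± 0.052 (log2, SE). Traf2 fell by 0.47 ± 0.073 in all cells, and in G1 cells its log2 fold change was -0.01 ± 0.11 (SE, adjusted p = 0.936).

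Of 18 caspase and apoptosome genes, 6 were higher and 7 lower, again near the 31.5% and 30.5% of all genes. Apaf1, the apoptosome scaffold, rose from 34.0 ± 1.95 to 65.1 ± 3.13 CPM, and Dffb, the caspase-activated DNase, from 7.01 ± 0.593 to 24.6 ± 0.911 CPM. Birc2 rose by 0.42 ± 0.059 (log2, SE). Birc5, which is needed for cell division, fell from 226 ± 16.2 to 19.1 ± 3.33 CPM, followed by Parp1 and Aifm1 at log2 fold changes of -1.04 ± 0.057 and -1.03 ± 0.075 (SE). Of 28 genes in the list of p53 and its other targets, 25 were higher and 1 lower, against the same 31.5% and 30.5%, with a median log2 fold change of 0.64. The antiproliferative gene Btg2, Dcxr and Trp53inp1 had the largest rises, at 1.20 ± 0.081, 1.11 ± 0.049 and 1.01 ± 0.058 (log2, SE). The lower gene was Trp53 itself, which went from 199 ± 15.5 to 172 ± 3.66 CPM in all cells and had a log2 fold change of 0.08 ± 0.051 in G1 cells (SE, adjusted p = 0.239).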

How the data were processed

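Single-cell libraries were made with the Chromium Single Cell 3′ V3 kit. The deposited values are raw UMI counts per gene and cell, which the authors made with Cell Ranger 3.0.1 against mm10 according to their processing notes, without normalization. Cells over 15% mitochondrial UMIs, under 200 genes or over 6000 genes were left out as in the study, and doublets were treated only by that upper limit. Phases were given by Seurat 5.3.0. Counts were summed per library, genes whose mean over libraries was under 1 count were dropped, and edgeR 4.0.16 (TMM, quasi-likelihood, Benjamini-Hochberg over all tested genes, threshold 0.05) gave fold changes, with library as a block where both classes of cells of a library were compared. No source states whether the 4 libraries of a temperature were separate cultures. Between temperatures, p-values therefore measure the spread between these libraries, with variance shared over genes. In the fits of cycling against G1 cells and of cells over the mitochondrial limit, p-values followed a nearly normal tail. There they rest on variance pooled over genes and not on the spread of each gene between libraries. Library pairs of the same temperature differed beyond sampling noise (chi-square over its degrees of freedom, 2.85 to 21.4), and at most 5 cell barcodes were shared by 2 libraries. Named were all 10 genes, Tnfrsf22 and Tnfrsf26, and the 3 largest rises and falls of each of 4 related lists (adjusted p under 0.05, at least 10 CPM in the higher group). The genes and lists were chosen with earlier results of these data known. Positions and overlaps are from GENCODE M21 (GRCm38), and promoters from RefSeq. DESeq2 1.42.0, other scaling, filters, phase lists and depths were tried as alternatives, and scripts were tested on simulated data.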

Additional observations from a re-analysis of the deposited data

Results flagged for a closer look

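The 4 genes whose temperature change differed between cycling and G1 cells had log2 differences of the changes of -0.38 for Pmaip1, -0.25 for Eda2r, -0.27 for Aen and -0.34 for Ei24 (edgeR test of the interaction, adjusted p of 0.00559 or less), each smaller in cycling cells. A single library stood apart in 2 of the 60 groups of 4 libraries examined, where chance flags about 1 in 20. The share of thinned cells with Fas at 39°C was 60.2% in replicate 2 and 63.6% to 63.8% in the other libraries, a gap of 0.964 of the range. The share with Perp at 39°C was 95.6% in replicate 3 and 96.6% to 96.8% in the others, a gap of 0.872 of the range. Both low libraries were above all 4 libraries at 37°C.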

How the results depend on the processing

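Over all cells, 9 genes were called and 1 passed the size limit under each of 19 alternatives, including DESeq2, a 10% mitochondrial limit, thinned or unfiltered cells (for the size limit, chosen after seeing the data) and each library left out. In G1 cells 9 were called under each of 19, including other ways to give phases. In S cells 8 were called under all 10 alternatives. In G2M cells the count was 4 without 39°C replicate 3 and at most 7 with another library left out, 8 with RLE size factors and 6 with a replicate block. The counts of genes that differed between cycling and G1 cells were 4 to 6 at 37°C and 7 to 9 at 39°C with 1 library left out, and 4 to 5 for the difference of the temperature changes. Same-numbered libraries did not deviate together (r of -0.117, -0.116, -0.0905 and 0.284), so the numbers were not taken as pairs. With the replicate block 9 genes were called in all cells and 9 in G1 cells. Signs turned for small values: Bax in G1 cells (-0.0019 with RLE size factors and with DESeq2, -0.0056 with upper quartile factors, -0.0015 to 0.055 with 1 library left out), and Tnfrsf10b at 37°C between cycling and G1 cells (-0.042 to 0.011 with 1 library left out). With phases scored within each library, cycling minus G1 values turned to 0.089 for Tnfrsf10b and 0.0073 for Eda2r at 37°C and 0.13 for Pmaip1 and 0.019 for Aen at 39°C, and differences of the changes to 0.072 for Bbc3 and 0.079 for Perp. The cause was not tested. Without thinning, the share of cells at 39°C minus that at 37°C was -0.998 percentage points for Bax and -0.133 for Aen. G2M sums at 39°C rest on few cells, which limits the calls there.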
